A study of Sus scrofa with 8 samples.

Results

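The genes described here encode the enzymes that build, trim and cap protein- and lipid-linked sugar chains and the enzymes that make the glycosylphosphatidylinositol (GPI) anchor. They were chosen by gene symbol alone, from probe sets of the Affymetrix Porcine array that carry 1 symbol in the platform annotation. The symbols taken were those of the fucosyltransferases (FUT), the sialyltransferases (ST3GAL, ST6GAL, ST8SIA, ST6GALNAC), the galactosyl- and N-acetylglucosaminyltransferases of the B3GAL, B4GAL and B3GN families, the GALNT and MGAT transferases, the mannosidases (MAN), and the ALG, DPM and PIG genes. This gave 82 probe sets of 55 genes among the 24123 probe sets of the array.

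The arrays came from 4 crossbred sows. In each sow, 1 oviduct received X-chromosome-bearing and the contralateral oviduct Y-chromosome-bearing spermatozoa by laparoscopy, the sperm having been sorted by flow cytometry from semen of several boars. RNA was taken 24 h later from cells scraped from the oviduct lining, which gave 4 arrays for X-spermatozoa and 4 for Y-spermatozoa. All 8 oviducts therefore held sorted spermatozoa, and no oviduct without spermatozoa was analysed here. Since the scrape holds several cell types, fewer cells of a type and less RNA per cell cannot be told apart.

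N-glycans are assembled on the lipid dolichol in the endoplasmic reticulum by the ALG enzymes, with mannose donated by dolichol phosphate mannose synthase (DPM), and are moved as a block onto asparagine. Mannosidases then trim the chain, MGAT enzymes start its antennae, and galactosyl-, sialyl- and fucosyltransferases complete the ends in the Golgi. GALNT enzymes start the mucin-type O-glycans on serine and threonine. The GPI anchor is built by the PIG proteins through the same dolichol-linked mannose donor and holds proteins such as complement regulators on the cell surface. In the pig oviduct, spermatozoa are stored by binding sugar chains on the epithelium, among them sialylated and fucosylated ones, so these enzymes set part of what a spermatozoon meets there.

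Signals are the deposited array signals, on a linear scale. Differences are log2 values after quantile normalization, Y-spermatozoa minus X-spermatozoa, with the standard error (SE) and two-sided p-value of limma over 23999 probe sets. Directions by sow, overlap of groups and permutation tests were also counted on the normalized log2 values. The labels name no sow, so arrays with the same replicate number were taken as those of 1 sow. Background was read from 81 probe sets with no pig target and averaged 10.3, with 8.5 to 12.3 on single arrays. The oviduct label was borne out by its markers: all 7 probe sets of 5 secretory genes and all 4 probe sets of 3 ciliated genes lay above background. As deposited, the secretory markers, OVGP1 among them, summed to 12850 to 15688 with X-spermatozoa and 15820 to 16391 with Y-spermatozoa, without overlap. The difference of OVGP1 ran from -0.06 to 0.32 over 23 fits with other models, scalings, filters or samples. The sum is therefore not read as a difference in cell makeup. The ciliated markers summed to 2202 to 2764 and 2334 to 3267, higher with Y-spermatozoa in each sow. After normalization the median differences were 0.11 and 0.13, with none called at an unadjusted limma p under 0.05. Smooth muscle markers summed to between 1588 and 7657 over the 8 arrays, a 4.82-fold range, and fibroblast markers spanned a 2.58-fold range, so the scrapes also held varying amounts of stromal RNA. At an unadjusted p under 0.05 none of the 7 smooth muscle probe sets was called between sperm types, with a median difference of -0.46. Of the leukocyte markers 3 of 8 probe sets, and of the spermatozoon markers 3 of 5, lay above background. Called higher with Y-spermatozoa among the cell markers were PTPRC of the leukocytes, with mean signals of 7.15 and 11.6 and so under background with X-spermatozoa, and the sperm protamine PRM1, under background on all 8 arrays. Of all probe sets, 1.62% were called higher with Y-spermatozoa and 3.56% in either direction. With the sow as a replicate block, 1 probe set each of DCN, VWF and ALAS2 was called as well. That made 5 marker probe sets, against 5.09% of all probe sets with the block. The DCN probe set had a mean signal of 1.95, under background. The part of cell makeup in the results that follow was not tested. The 27 hybridisation control probe sets averaged 9.65 to 9.82 (log2) on the X-spermatozoa arrays and 9.82 to 10.06 on the Y-spermatozoa arrays.

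The oviduct expressed most of these genes. Of the 82 probe sets, 71 (86.6%) had a mean signal above background, against 75.1% of all probe sets, and 51 of the 55 genes had at least 1 such probe set. B3GNTL1, ST3GAL2, ST3GAL3 and ST6GALNAC5 had none, and ST6GALNAC5, a sialyltransferase of gangliosides, averaged 0.8 with X-spermatozoa and 0.5 with Y-spermatozoa. Each family had members above background: 4 of 4 FUT, 8 of 11 ST3GAL, ST6GAL and ST8SIA, 1 of 2 ST6GALNAC, 11 of 13 B3GAL, B4GAL and B3GN, 5 of 6 GALNT, 5 of 5 MGAT, 8 of 9 MAN, 11 of 11 ALG, 3 of 3 DPM and 15 of 18 PIG probe sets.

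Between X- and Y-spermatozoa the transcripts of these enzymes differed little. At an unadjusted p under 0.05, 1 of 82 probe sets was called, for PIGP, against 3.56% of all probe sets in either direction and 1.62% in the direction of higher signal with Y-spermatozoa. None of the 82 was lower at that threshold, against 1.94% of all, and after Benjamini-Hochberg adjustment in limma none of the 82 and none of the 23999 was called. The median difference was -0.0016 over the members and 0.0032 over all probe sets, with 38 members above 0 and 43 below. Family medians ran from -0.18 for the FUT to 0.05 for the MAN and for the B3GAL, B4GAL and B3GN probe sets, leaving out the ST6GALNAC family, which had 1 probe set above background. A missed threshold does not show equal levels, and the 95% intervals give what the arrays could bound. Of the 70 uncalled probe sets above background, 33 had an interval that stayed within 0.5 on the log2 scale (1.41-fold) in either direction, and 64 had one within 1.

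**Figure D1:**
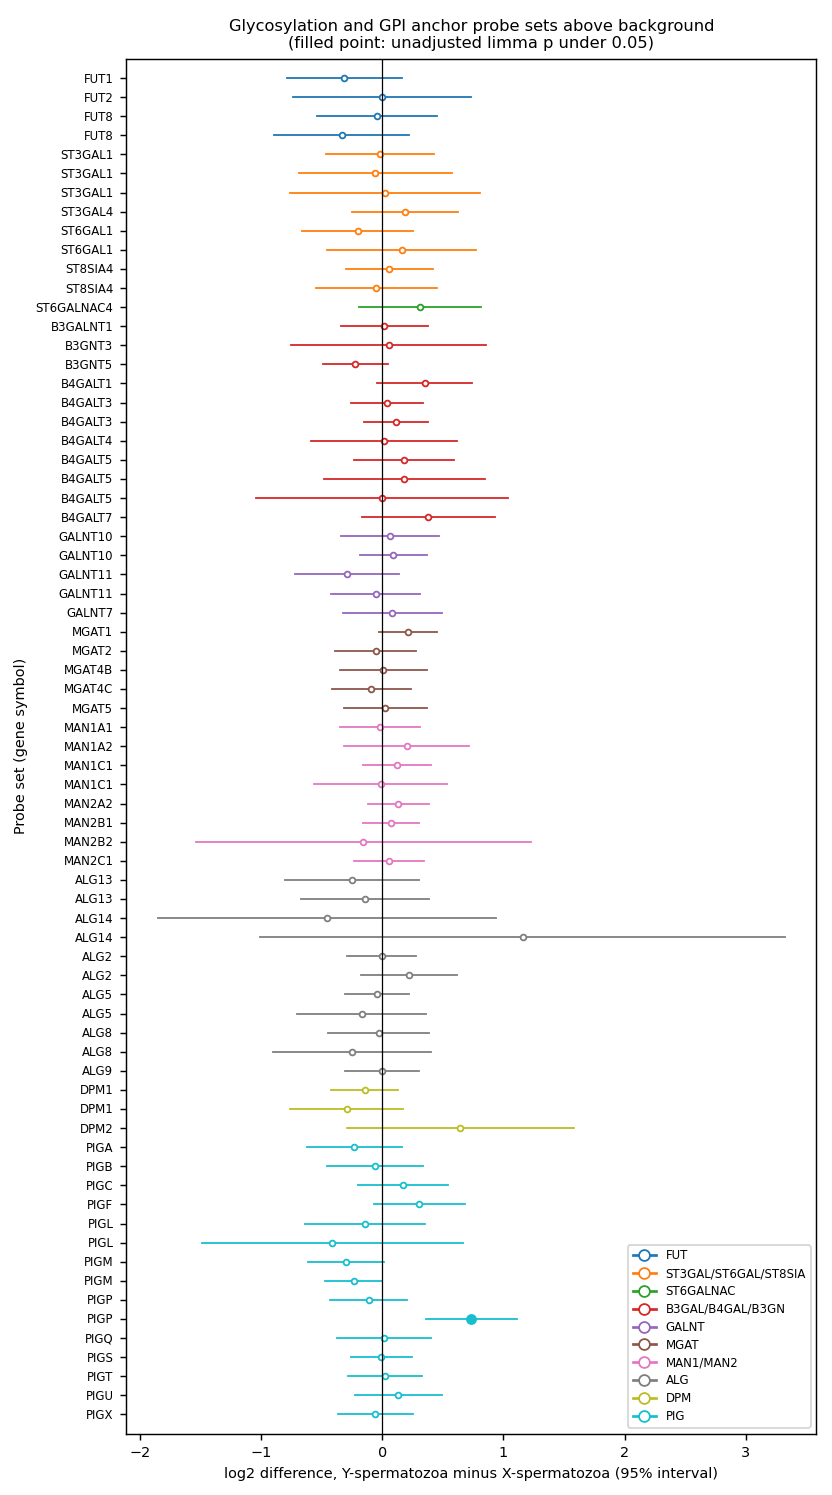
Log2 difference between oviducts with Y- and X-spermatozoa for the 71 member probe sets with a mean above background (points; 1 ALG14 and 1 PIGL probe set are above it in 1 group alone) with its 95% interval (lines), grouped by family. The interval of 1 member, a PIGP probe set at 0.74, lies wholly on the side of higher signal with Y-spermatozoa (filled point, unadjusted p under 0.05).

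Groups that did not overlap were found for 3 of 82 members, against 2.07% of all probe sets. MGAT1 and a PIGP probe set were higher with Y-spermatozoa, the direction in which 0.896% of all probe sets had groups that did not overlap, and a PIGM probe set was lower, against 1.17% of all. A same direction in all 4 sows was seen for 12 members, or 14.6%, against 13.2% of all probe sets. Those higher with Y-spermatozoa in each sow numbered 7 (ALG2, B4GALT3, B4GALT5, MAN1A2, MGAT1, PIGP and ST6GALNAC4, 1 probe set each), against 6.44% of all. Those lower in each sow numbered 5 (ALG5, B3GNT5, GALNT11, PIGA and PIGM, 1 probe set each), against 6.71% of all.

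GPI anchor synthesis begins with a complex that puts N-acetylglucosamine on phosphatidylinositol, of which PIGP is a small subunit. A low PIGP probe set gave signals of 19.8, 19.9, 21.5 and 16.6 with X-spermatozoa in sows 1 to 4 and of 38.5, 26.6, 35.1 and 25.9 with Y-spermatozoa. All 4 Y-spermatozoa arrays were thus above all 4 X-spermatozoa arrays, with the widest gap in sow 1. The difference was 0.74 (SE 0.16, 95% interval 0.36 to 1.11, unadjusted p = 0.00213), and an exact permutation test, two-sided, gave p = 0.0286, which is the minimum for groups of 4 and 4 arrays. This test relabelled all 8 arrays without regard to sow. Groups that do not overlap always give its minimum, so here and for PIGM and MGAT1 below it only restates the lack of overlap. Its group means were 1.89 and 3.06 times the background level. When the hybridisation control level of each array entered the limma fit, the difference was 0.46 (SE 0.27, unadjusted p = 0.138). That level largely followed sperm type, as given above, so this fit separates the 2 poorly and has a wider SE.

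A brighter probe set for the same gene did not show this difference. It gave 625.7, 617.6, 576.2 and 567.5 with X-spermatozoa and 525.9, 584.1, 673.0 and 463.8 with Y-spermatozoa. The groups overlapped, and Y-spermatozoa arrays were both the highest and the lowest. The difference was -0.11 (SE 0.14, 95% interval -0.43 to 0.21, limma unadjusted p = 0.438), and the intervals of the low and the bright PIGP probe set did not overlap. The remaining PIGP probe set was not above background in either group.

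**Figure D2:**
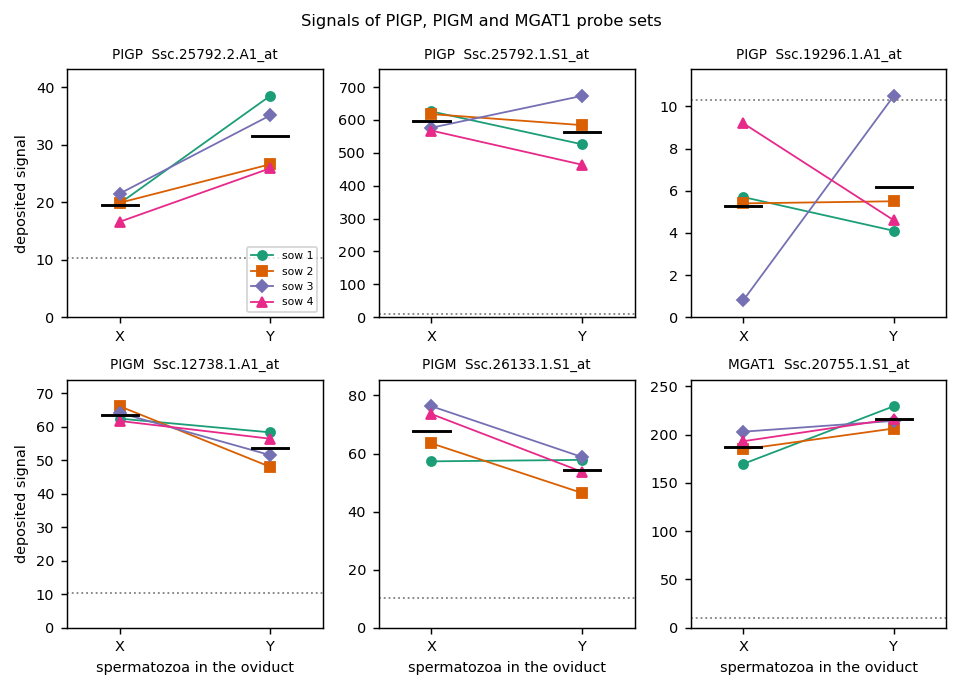
Deposited signals (linear axis from 0) of the PIGP, PIGM and MGAT1 probe sets, with the X- and Y-spermatozoa oviducts of a sow joined by a line, group means as black bars and background as a dotted line. The low PIGP probe set is higher with Y-spermatozoa in each sow, while the lines of the bright PIGP probe set go up in 1 sow and down in 3.

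The other subunits of this first complex showed no call. The bright PIGC probe set averaged 415.2 and 472.4 with X- and Y-spermatozoa (0.17, SE 0.16), PIGQ 152.5 and 154.3 (0.01, SE 0.17) and PIGA, the catalytic subunit, 149.4 and 127.7 (-0.23, SE 0.17). A further PIGC probe set was below background in both groups. PIGL, which removes the acetyl group in the next step, had 3 probe sets. The brightest averaged 23.2 and 20.5, above background in both groups (-0.14, SE 0.21). Of the others, 1 was above background with X-spermatozoa alone and 1 was below it in both groups.

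PIGM, which adds the first mannose of the anchor, was the member closest to the threshold after PIGP. Of its probe sets, 1 gave 62.4, 66.1, 64.1 and 61.7 with X-spermatozoa and 58.3, 48.0, 51.5 and 56.4 with Y-spermatozoa. The groups did not overlap, and the gap was smallest in sow 1. The difference was -0.23 (SE 0.10, unadjusted p = 0.0504; exact permutation test, two-sided, p = 0.0286). The other PIGM probe set gave 57.3, 63.5, 76.3 and 73.6 against 57.8, 46.4, 58.8 and 53.7. Here sow 1 showed no gap and the other 3 sows were lower with Y-spermatozoa, for a difference of -0.30 (SE 0.13, unadjusted p = 0.0602). Both PIGM probe sets therefore pointed the same way and neither passed the threshold in this unpaired fit. With the sow as a fixed replicate block the unadjusted p-values were 0.0772 and 0.0633, and with the sow as a random block 0.0289 and 0.0328. Without the Y-spermatozoa array of sow 1 the first probe set gave -0.27 (unadjusted p = 0.0349), and without the X-spermatozoa array of sow 1 the other gave -0.37 (unadjusted p = 0.0309). Each passed in 5 of its 22 alternative fits, which used other models, scalings, filters or samples. PIGX, the partner of PIGM, averaged 122.1 and 115.9 (-0.06, SE 0.13).

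For the later steps, PIGB, which adds a further mannose, averaged 170.5 and 161.1 (-0.06, SE 0.17). PIGF, needed for the ethanolamine phosphate bridges, averaged 68.7 and 83.6 (0.31, SE 0.16, unadjusted p = 0.0946), and it gave 0.40 (unadjusted p = 0.0462) without the X-spermatozoa array of sow 4 and 0.41 (unadjusted p = 0.0332) without the Y-spermatozoa array of sow 3. In the block without sow 3 PIGF gave 0.44 (unadjusted p = 0.0463), and it passed in no other alternative fit. The subunits of the transamidase that joins the anchor to the protein had intervals that included 0. PIGT averaged 542.5 and 555.6 (0.02, 95% interval -0.28 to 0.33), PIGS 120.9 and 119.1 (-0.01, -0.26 to 0.24) and PIGU differed by 0.13 (-0.23 to 0.49).

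The mannose donor for both pathways is made by DPM1, the catalytic subunit, and the small subunit DPM2. DPM2 gave 8.4, 27.4, 13.9 and 8.3 with X-spermatozoa and 16.2, 24.8, 22.2 and 15.1 with Y-spermatozoa. It was higher with Y-spermatozoa in 3 sows and slightly lower in sow 2, and 2 of the X-spermatozoa arrays were below background. The difference was 0.65 (SE 0.40, unadjusted p = 0.150). With the sow as a replicate block, p was 0.0382. Without the X-spermatozoa array of sow 2 the difference was 1.02 (unadjusted p = 0.00657), and with the hybridisation covariate it was 0.31 (SE 0.74, unadjusted p = 0.687). DPM2 passed in 3 of 21 alternative fits. Both DPM1 probe sets leaned the other way, by -0.14 (SE 0.12) for the brighter, which averaged 262.1 and 236.6, and by -0.29 (SE 0.20) for the dimmer. None of the 3 was called in the unpaired fit of all 8 arrays.

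Among the ALG enzymes, none of 11 probe sets was called and the median difference was -0.04. ALG2, which adds mannose to the dolichol-linked chain, had a dimmer probe set that averaged 101.5 and 117.8 (0.22, SE 0.17) with a higher value for Y-spermatozoa in each sow, while its brighter one averaged 344.6 and 341.1 (-0.01, SE 0.12). ALG13 and ALG14 together form the enzyme for the second sugar of the chain. The probe sets of ALG13 gave -0.14 (SE 0.23) and -0.25 (SE 0.24). Those of ALG14 were close to background. The dimmer averaged 9.6 and 14.3 and was not above background with X-spermatozoa, and the brighter had an interval of -1.85 to 0.93, too wide to bound a difference of several-fold. ALG5, which makes the dolichol-linked glucose donor, ALG8, a glucosyltransferase, and ALG9, a mannosyltransferase, gave differences from -0.25 to -0.00 over 5 probe sets. The dimmer ALG8 probe set moved from -0.25 to -0.51 (unadjusted p = 0.0343) without the Y-spermatozoa array of sow 3, and the brighter ALG13 probe set to -0.34 (unadjusted p = 0.0360) in the block without sow 1. Neither passed in any other alternative fit, and those of this ALG13 probe set, 23 in all, ran from -0.57 to -0.07.

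In the Golgi, MGAT1, which starts the complex N-glycans, gave 169.7, 184.8, 203.1 and 193.2 with X-spermatozoa and 229.5, 206.4, 214.3 and 216.3 with Y-spermatozoa. All Y-spermatozoa arrays were above all X-spermatozoa arrays, and sow 1 had the widest gap and sow 3 the narrowest. The difference was small, at 0.21 (SE 0.10, unadjusted p = 0.0762; exact permutation test, two-sided, p = 0.0286). Its unadjusted p was 0.109 with the sow as a fixed block and 0.0476 with the sow as a random block. The other MGAT enzymes, which add the further antennae, lay between -0.09 for MGAT4C and 0.03 for MGAT5, with MGAT2 at -0.05 and MGAT4B at 0.01. All 5 MGAT genes were above background.

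The mannosidases differed little. MAN1C1 and MAN1A2, which trim mannose in the Golgi, gave 0.12 (SE 0.12) for the brighter MAN1C1 probe set and 0.20 (SE 0.22) for MAN1A2. MAN2A2, which trims further after MGAT1 has acted, averaged 200.7 and 219.9 on its bright probe set (0.13, 95% interval -0.12 to 0.39). The lysosomal MAN2B1 gave 0.07 (-0.16 to 0.30) and the cytosolic MAN2C1 0.05 (-0.24 to 0.34). MAN1A1 and MAN2B2 were just above background and gave -0.02 (-0.35 to 0.31) and -0.15 (-1.53 to 1.22), so little can be said of MAN2B2.

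Among the galactosyltransferases, B4GALT1, the main enzyme for the galactose of N-glycan antennae, gave 321.9, 349.6, 252.8 and 274.8 with X-spermatozoa and 341.8, 332.8, 487.5 and 373.1 with Y-spermatozoa. The Y-spermatozoa oviduct was the higher in sows 1, 3 and 4, by far the most in sow 3, and the groups overlapped. The difference was 0.35 (SE 0.17, 95% interval -0.04 to 0.74, unadjusted p = 0.0728). B3GNT5, which starts the lacto-series glycolipids, leaned the other way, with 347.2, 396.5, 393.2 and 440.7 against 321.8, 317.4, 376.7 and 335.5. It was lower with Y-spermatozoa in each sow while the groups overlapped (-0.22, SE 0.12, unadjusted p = 0.0923). B4GALT5, which makes lactosylceramide, gave 0.18 (SE 0.18), 0.18 (SE 0.29) and -0.00 (SE 0.45) on its 3 probe sets. B4GALT7, which acts on the linker of proteoglycans, averaged 62.8 and 80.8 (0.38, SE 0.24). B4GALT3 gave 0.04 (SE 0.13) and 0.11 (SE 0.11), B4GALT4 0.02 (SE 0.26) and the bright probe set of B3GALNT1, the globoside synthase, 0.02 (SE 0.16), while B3GNT3 was near background, with means of 12.8 and 13.8. Single arrays or sows decided some calls here: B4GALT1 gave 0.43 (unadjusted p = 0.0473) without the X-spermatozoa array of sow 2, B3GNT5 -0.29 (unadjusted p = 0.0470) without that of sow 1, and B4GALT7 0.51 (unadjusted p = 0.0236) in the block without sow 3. B4GALT1 passed in 5 of 23 alternative fits, B3GNT5 in 2 of 23 and B4GALT7 in no other than that named. The other passing fits of B4GALT1 left out no array and used a pseudocount, a signal filter or a variance trend. That of B3GNT5 used a variance trend.

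FUT1 and FUT2 add the fucose of the H blood group structure, and FUT8 the fucose on the core of N-glycans. FUT1 gave 83.2, 68.2, 95.8 and 96.8 with X-spermatozoa and 68.7, 76.4, 84.0 and 47.8 with Y-spermatozoa. It was lower with Y-spermatozoa in 3 of 4 sows, most in sow 4, and the groups overlapped (-0.31, SE 0.20, unadjusted p = 0.167). FUT2 did not separate by sperm type, with group means of 222.4 and 227.7 and a 95% interval of -0.73 to 0.73. The brighter FUT8 probe set averaged 114.6 and 111.7 (-0.04, SE 0.21) and the dimmer one 24.3 and 18.6 (-0.34, SE 0.24), the latter moving to -0.47 (unadjusted p = 0.0348) in the block without sow 3. The dimmer one passed in this 1 of 21 alternative fits, which ran from -0.51 to -0.19.

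Sialic acid is put on N-glycan ends by ST6GAL1 and ST3GAL4, on O-glycan cores by ST3GAL1 and ST6GALNAC4, and as long chains by ST8SIA4. ST6GALNAC4 gave 97.6, 100.2, 139.4 and 159.3 with X-spermatozoa and 138.5, 121.9, 158.6 and 190.8 with Y-spermatozoa. It was higher with Y-spermatozoa in each sow, but sows 3 and 4 were high in both oviducts and the groups overlapped (0.31, SE 0.22, unadjusted p = 0.191). With the replicate block p was 0.0276. The bright ST6GAL1 probe set gave 543.9, 597.7, 382.9 and 650.5 against 529.9, 548.4, 400.1 and 415.9, with the widest gap in sow 4 (-0.20, SE 0.20), and the dimmer gave 0.16 (SE 0.26). ST3GAL4 gave 0.19 (SE 0.19), the 3 ST3GAL1 probe sets above background lay between -0.06 and 0.02, and both ST8SIA4 probe sets between -0.05 and 0.06. Without the Y-spermatozoa array of sow 2, ST3GAL4 gave 0.36 (unadjusted p = 0.0225), and in the block without sow 4 the dimmer ST6GAL1 probe set gave 0.44 (unadjusted p = 0.0268). Each passed in that 1 alternative fit alone, of 22 for ST3GAL4 (-0.13 to 0.36) and of 21 for ST6GAL1 (-0.03 to 0.44).

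The GALNT enzymes that start O-glycans were GALNT7, GALNT10 and GALNT11. The brightest GALNT11 probe set gave 606.3, 416.5, 625.6 and 637.8 with X-spermatozoa and 508.1, 373.4, 507.5 and 488.7 with Y-spermatozoa. It was lower with Y-spermatozoa in each sow, and sow 2 was the lowest in both groups (-0.29, SE 0.18, limma unadjusted p = 0.156, and unadjusted p = 0.0300 with the replicate block). Without the X-spermatozoa array of sow 2 the difference was -0.44 (unadjusted p = 0.0236). This probe set passed in 3 of 23 alternative fits, the block among them. Another GALNT11 probe set, averaging 223.8 and 214.9, gave -0.06 (SE 0.16), and the remaining one was below background. GALNT7 averaged 377.4 and 398.8 (0.08, SE 0.18), and the GALNT10 probe sets gave 0.06 and 0.09.

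With the sow as a replicate block, 4 of 82 members were called at an unadjusted p under 0.05 (PIGP, ST6GALNAC4, GALNT11 and DPM2, 1 probe set each), against 5.09% of all probe sets, and none after adjustment. Probe sets of the same gene allowed a check within the array. Of the 55 genes, 21 had several probe sets, and in 10 of them the probe sets differed in sign. Counting only probe sets above background, 8 of 18 genes differed in sign.

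How the members followed the sow was close to how all probe sets did. For the 71 probe sets above background, sow, which holds 3 of the 7 degrees of freedom (42.9%), took a median of 62.3% of the variance, against 59.6% for all probe sets above background. Sperm type, which holds 1 of them (14.3%), took 7.28%, against 5.55% for all. The sow with the highest signal was the same in both oviducts for 34 of 71 members (47.9%), against 41.4% of all, and the lowest sow for 27 (38.0%), against 40.0% of all. A limma F-test between sows called 15 of 82 members at an unadjusted p under 0.05, against 14.2% of all (12 of the 71 above background, against 14.3%), and none of the 82 or of the 23999 after adjustment. Labels give no processing date, so sow and any shared handling of a sow's 2 samples cannot be told apart.

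**Figure D3:**
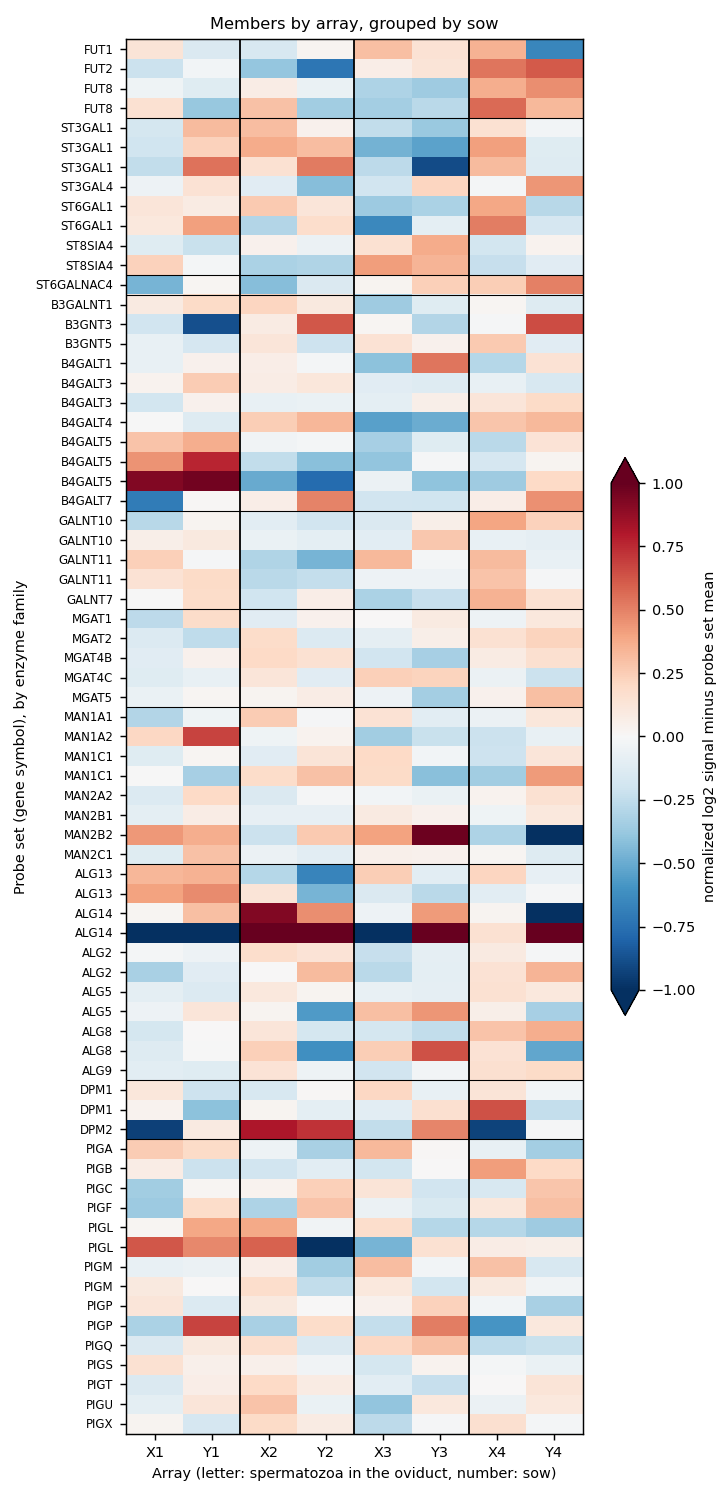
Log2 signal of each member probe set above background relative to its mean over the 8 arrays, by sow and sperm type, grouped by family. Sow took a median of 62.3% of the variance of these probe sets. FUT2, B4GALT4 and B4GALT5 are rows with like colours in both oviducts of a sow.

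In a fit restricted to the brighter 11999 probe sets, those with a mean above the median of all, 6 of 53 members passed at an adjusted p under 0.05 between sows, against 7.46% of those probe sets. These 6 genes are described as chosen after their values were seen. B4GALT4, a further galactosyltransferase, gave 164.4, 192.3, 113.9 and 197.0 with X-spermatozoa and 151.4, 203.9, 116.3 and 204.0 with Y-spermatozoa (limma adjusted p = 0.0230). Sow 3 was the lowest in both oviducts, and sow took 98.5% of the variance. FUT2 gave 187.3, 164.3, 226.0 and 312.2 against 213.7, 130.4, 236.9 and 329.9 (adjusted p = 0.0239). Sow 4 was the highest and sow 2 the lowest in both oviducts, 2.19-fold apart on average.

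The brighter FUT8 probe set was also highest in sow 4 and lowest in sow 3, with 107.8, 117.1, 91.7 and 141.8 against 102.2, 105.6, 87.0 and 151.8 (limma adjusted p = 0.0475). B4GALT5 was highest in sow 1 on each of its 3 probe sets and in both oviducts. Its middle probe set by signal gave 190.5, 117.7, 108.7 and 123.0 against 237.3, 103.9, 138.6 and 140.8 (limma adjusted p = 0.0388), and the dimmest of the 3 spanned 2.99-fold between sows. ST6GALNAC4, described above, and ALG13 both had an adjusted p of 0.0495, and the brighter ALG13 probe set was lowest in sow 2 in both oviducts, at 271.0 and 206.0 against 308.6 to 419.5 in the other sows. Smooth muscle markers, by comparison, summed to 2528 and 1588 in sow 1, 7657 and 5640 in sow 2, 6732 and 2068 in sow 3 and 4281 and 6763 in sow 4 with X- and Y-spermatozoa. Sow 1 was thus low in both oviducts, while sow 3 was high in only 1. The part of cell makeup in the sow differences was not tested.

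**Figure D4:**
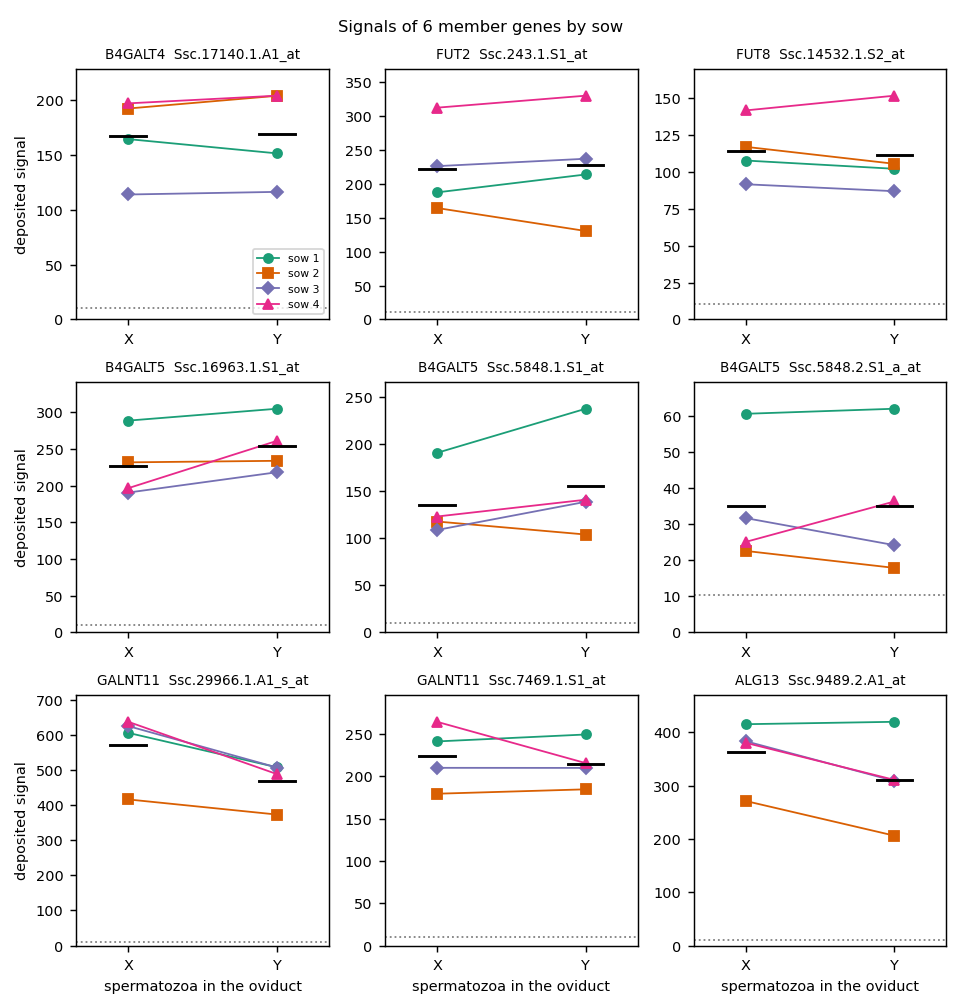
Deposited signals (linear axis from 0) of B4GALT4, FUT2, FUT8, B4GALT5, GALNT11 and ALG13 probe sets, with the X- and Y-spermatozoa oviducts of a sow joined by a line, group means as black bars and background as a dotted line. Several panels show near-level lines kept apart by sow, as for FUT2 with sow 4 highest and sow 2 lowest in both oviducts.

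The other steps of the same pathways were read from 8 lists, covering dolichol supply, oligosaccharyltransferase, glucose trimming, nucleotide sugar synthesis and transport, O-glycan cores, lysosomal sugar removal and the GPI transamidase. Of 106 listed genes 62 were measured, by 89 probe sets of which 87 were above background. None of the 89 was called between sperm types at an unadjusted p under 0.05 in limma, against the 3.56% of all probe sets, nor with the replicate block, and their median difference was 0.04. With the sow as a random block 1 was called, for GMPPA of GDP-mannose supply (0.21, unadjusted p = 0.0426), against 1459 of all 23999 probe sets. Leaving out 1 array called at most 3 of the 89, against 767 to 1029 of all.

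Proteins that carry these sugars or anchors were read from lists of GPI-anchored proteins and of mucins and oviduct glycoproteins, with 19 of 46 genes measured by 34 probe sets. None was higher and 1 of the 34 was lower with Y-spermatozoa at an unadjusted p under 0.05, against 1.94% of all probe sets. It belonged to CD55, a GPI-anchored regulator of complement, and none passed after adjustment. This CD55 probe set gave 82.5, 80.7, 63.3 and 64.2 with X-spermatozoa and 63.2, 36.9, 48.5 and 47.8 with Y-spermatozoa. It was lower with Y-spermatozoa in each sow, the Y-spermatozoa signal of sow 1 lay next to the lowest X-spermatozoa signals, and the groups overlapped after normalization (-0.56, SE 0.18, unadjusted p = 0.0166; exact permutation test, two-sided, p = 0.0571). The other 4 CD55 probe sets, also negative, lay between -0.51 and -0.16. The one at -0.51, averaging 429.0 and 291.2, was called with the sow as a replicate block (unadjusted p = 0.0443) and as a random block (unadjusted p = 0.0345). It gave -0.71 (unadjusted p = 0.00804) without the X-spermatozoa array of sow 2, and passed in 8 of 23 alternative fits. Without the Y-spermatozoa array of sow 1 those at -0.16 and -0.21 became -0.35 and -0.36 (unadjusted p = 0.0222 and 0.0321), the only alternative in which they passed. CD55 is among the genes the study names from these same samples, so it is no independent evidence. OVGP1, the secreted oviduct glycoprotein, gave 6588.9, 8469.1, 7735.7 and 5841.4 against 9314.9, 8576.2, 9034.9 and 7768.9. It was higher with Y-spermatozoa in each sow as deposited, with a difference of 0.29, whereas quantile normalization gave 0.02, so its direction is not given.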

How the data were processed

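Cells scraped from 8 oviducts of 4 sows were hybridised by the authors to the Affymetrix Porcine array. The deposited intensity values are linear signals of MAS5 5.1 (per the labels), scaled by the authors to a common level per array. The aligner and genome build do not apply to an array, and the probe sequences were not used here. Array medians ran from 38.7 to 41.2, and the number of arrays limits the precision.

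From these values, signals were quantile normalized over all 24123 probe sets, raised to a floor of 1 and taken to log2. The 124 control probe sets were left out, and 23999 were fitted with limma 3.58.1 in R 4.3.3, without the sow, with Benjamini-Hochberg adjustment. Symbols came from the platform annotation, and all 82 members matched the pig gene table by gene identifier. Arrays with the same replicate number were taken as the oviducts of 1 sow, which the labels do not state. The deviations of such arrays from their group means correlated at 0.132 to 0.187. Arrays with different numbers were not set beside them, so these values do not test the pairing. Fits with the sow as a fixed or a random block are given beside the named members and CD55 where they changed a call. Fits of uncalled probe sets that leave out an array or a sow are given only where they passed, and most such fits did not pass. Sows were compared by an F-test in a fit with sow and sperm type.

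The background level is the 95th percentile of 64 reporter and 17 tag probe sets on each array. It was set after the values were seen, because the level first planned (mean 163) included control RNA added to the samples, and it serves as a filter in the alternatives. Fits were tested on simulated data. Members and lists were chosen with earlier results of these data known. Named members were those called, the 2 with the smallest p and the 2 brightest of each family, and genes whose probe sets differed in sign; others are added for their role in the pathway after their values were seen. Replicates are different animals. Alternatives were other scalings, filters, variance models, a hybridisation covariate, and leaving out an array or a sow.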

Additional observations from a re-analysis of the deposited data

Results flagged for a closer look

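Dixon's test was run on 130 groups of 4 arrays, from named probe sets of members and of listed genes above background in both groups. Of these, 7 held an array far from the other 3 by the ratio of gap to range of the normalized log2 values, and chance alone gives about 1 in 20. The brightest GALNT11 probe set was low in sow 2 in both oviducts, at 416.5 against 606.3 to 637.8 with X-spermatozoa (0.861) and at 373.4 against 488.7 to 508.1 with Y-spermatozoa (0.855). The brighter ALG14 probe set was high in sow 2 with X-spermatozoa, at 28.8 against 15.4 to 15.7 (0.927), and low in sow 4 with Y-spermatozoa, at 3.4 against 18.1 to 20.5 (0.937), the latter under background. PIGT was low in sow 3 with Y-spermatozoa, at 463.8 against 572.7 to 604.9 (0.840). The dimmer FUT8 probe set was high in sow 4 with Y-spermatozoa, at 25.7 against 15.6 to 17.5 (0.834). The PIGM probe set whose groups did not overlap stood at 66.1 in sow 2 with X-spermatozoa against 61.7 to 64.1 (0.888). The signals quoted are as deposited. On those, the ratios of PIGM, PIGT and FUT8 were 0.455, 0.772 and 0.812 and were not past the critical value, while the 4 of GALNT11 and ALG14 were.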

How the results depend on the processing

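No member passed the adjusted threshold between sperm types under any alternative, and no called difference changed sign. Of 71 single differences, from named members and listed genes at any signal level, 38 had the other sign under at least 1 alternative. Of these 38, 0 were called in the reported fit, so their direction is not settled. At an unadjusted p under 0.05, 1 member was called. This became 4 with the sow as a replicate block, as a random block or with a variance trend, 3 with a pseudocount of 16 or above the median signal, 2 with median centring, deposited scaling, array weights or the filter at the planned background, 1 to 4 without 1 array, and 2 to 5 in the block without 1 sow. The low PIGP probe set missed the threshold with the hybridisation covariate, which largely followed sperm type (limma unadjusted p = 0.138). The 1 member called in that fit was a PIGL probe set at background level. The called CD55 probe set missed it in the block without sow 4 (limma unadjusted p = 0.0538). Over all 23999 probe sets the count was 855, and 1222 with the replicate block, 1459 with sow as a random block, 821 with a trend and 814 with the pseudocount. It was 879 with median centring, 902 with deposited scaling and 862 with array weights. Without 1 array it was 767 to 1029, and in the block without 1 sow 1079 to 1207. Among the filtered probe sets it was 311 above the median signal, 557 above background (chosen after seeing the data) and 98 at the planned background. Between sows, adjusted calls were 0 for members and 0 for all, and 6 and 895 above the median signal; for all probe sets they were 414 with the pseudocount, 209 with a trend and 87 above background. The filters test fewer probe sets, and for the rest the cause was not tested. PIGM, MGAT1, B4GALT1 or B3GNT5 passed under some variance models, scalings or filters. Among members above background, both ALG14 probe sets, MAN2B2, a PIGL and the dimmest B4GALT5 probe set had the widest intervals.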
